A study of Mus musculus with 24 samples.

Results

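The genes described here are 10 inflammatory cytokine and acute phase genes, Il6, Tnf, Il1b, Il33, Il10, Ccl2, Ccl7, Cxcl1, Saa3 and Hp, taken by symbol from the 19175 genes of an RNA-Seq table of mouse subcutaneous white adipose tissue (sWAT). The tissue came from 24 mice aged 20 weeks in 4 groups of 6, WT and Gdf15-KO mice of each sex. Gdf15-KO mice lack growth differentiation factor 15, a stress-induced hormone, in every cell of the body, are on a C57BL/6/129/SvJ background and were compared with WT littermates. All 24 animals had free access to standard chow and were killed in the fed state at the start of the dark phase. None had received an inflammatory stimulus, so the values are resting levels. The question was whether these genes differ between Gdf15-KO and WT sWAT in either sex, and whether they differ between females and males.

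Resident macrophages, mast cells, lymphocytes, progenitors and endothelial cells share adipose tissue with the adipocytes, and a small set of secreted proteins carries inflammatory signals between them. TNF and IL-1 beta start the response in receiving cells through NF-kB, chemokines bring in leukocytes, IL-10 dampens the response, and IL-6 acts through STAT3 on cells that make acute phase proteins. Haptoglobin, encoded by Hp, binds free haemoglobin in blood and is made by liver and by adipocytes. In expanded, inflamed fat Tnf, Il6 and Ccl2 are widely used as markers of inflammation.

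For 6 of the 10 genes a RefSeq promoter window of 300 bases across the start site was matched (GRCm38.p6), and these windows were searched on both strands for the elements through which such genes are classically induced. The windows of Il6, Cxcl1 and Tnf are printed as examples that differ in the matches they hold. Capitals mark every match to the NF-kB consensus, AP-1 (TGANTCA), STAT (TTCNNNGAA), C/EBP (TTGCNNAA) and TATA box (TATAAA) motifs, and the letters run 5′ to 3′ on the strand of the gene.
Il6 (plus strand): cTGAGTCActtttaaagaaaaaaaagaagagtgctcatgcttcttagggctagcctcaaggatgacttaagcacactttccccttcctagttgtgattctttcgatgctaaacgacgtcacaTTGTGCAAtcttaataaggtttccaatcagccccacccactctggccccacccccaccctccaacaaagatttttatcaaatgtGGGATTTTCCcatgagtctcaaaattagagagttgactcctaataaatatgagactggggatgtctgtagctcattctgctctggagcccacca
Cxcl1 (plus strand): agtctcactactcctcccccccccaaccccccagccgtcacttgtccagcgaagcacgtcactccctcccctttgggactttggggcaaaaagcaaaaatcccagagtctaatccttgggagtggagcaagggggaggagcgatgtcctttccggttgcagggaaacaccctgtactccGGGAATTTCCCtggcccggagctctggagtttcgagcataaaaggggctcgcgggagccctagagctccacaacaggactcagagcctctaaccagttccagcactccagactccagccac
Tnf (minus strand): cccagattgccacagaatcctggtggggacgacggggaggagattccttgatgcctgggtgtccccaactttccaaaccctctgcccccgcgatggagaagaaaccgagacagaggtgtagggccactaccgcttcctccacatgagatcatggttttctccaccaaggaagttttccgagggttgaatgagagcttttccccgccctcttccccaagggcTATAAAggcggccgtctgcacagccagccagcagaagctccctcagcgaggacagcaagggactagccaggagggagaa

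The Il6 window, chr5:30012864-30013163, held an AP-1 match at -249, a C/EBP match at -128 and an NF-kB match at -44 relative to the start site. The Cxcl1 window, chr5:90890995-90891294, held 2 overlapping NF-kB matches at -71 and -70. The Tnf window, chr17:35201958-35202257, held a TATA box at -29 and no match to the other motifs within these letters. Of the 6 genes, NF-kB matches occurred in 2, against 8.5% of 32851 promoter windows. A gene counted if any of its windows held a match (Il33 had 2), while the background shares are of windows, so the units differ. C/EBP matches occurred in 3 (Il6, Saa3 and 1 of the windows of Il33) against 10.8%, and TATA boxes in 3 (Il1b, Tnf and both windows of Il33) against 13.6%. AP-1 occurred in 1 against 7.8%, and STAT in 0 against 8.3%. A match describes the sequence and does not show that a factor binds there. The absence of a match does not show that a gene lacks the element, since only these windows and spellings were searched.

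The genes lay apart in the genome except for the chemokines Ccl2 and Ccl7, neighbours on chromosome 11 of GRCm39 with 8253 bases between them. Ccl2 ran from 81926397 to 81928279 and Ccl7 from 81936532 to 81938351. Hp lay on chromosome 8 from 110301759 to 110305804, 39.2 Mb from Gdf15 on the same chromosome. All 10 are protein coding.

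The sum of counts per mouse lay between 22521358 and 24500575, so depth was nearly even. Gdf15 had 73 counts in the 6 female WT and 3 in the 6 female Gdf15-KO mice, and 135 and 4 in the males. Adipocyte markers summed to between 12600 and 28020 CPM (counts scaled to library size by the trimmed mean of M values) and were detected in every mouse, and macrophage markers to between 1417 and 2780. Female libraries also held 805 to 2063 CPM of mammary and epithelial markers, against 4.66 to 19.4 in males, and skeletal muscle markers ran from 23.2 to 35720 CPM over the 24 mice. In bulk tissue fewer cells of a type and less RNA per cell cannot be told apart. Replicates were separate animals, so p-values below measure the spread between mice.

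Resting sWAT held these transcripts at levels that differed by orders of magnitude. Per kilobase of transcript, the level of Hp averaged 183 ± 54.6 CPM (SD, n = 6) in female WT and 1007 ± 195 in male WT mice, and it did not overlap with that of the next gene in any group. Il33, an alarmin stored in the nucleus of stromal and endothelial cells, came next at 7.31 to 9.02 CPM per kilobase as group means, and in female WT mice it did not overlap with the gene after it. Ccl7 and Ccl2, chemoattractants for monocytes, followed at 3.77 to 6.72, and Tnf at 2.13 to 3.27, with ranges that overlapped from one to the next. Il1b, Cxcl1 (a neutrophil chemoattractant), Il10 and Saa3 (an acute phase serum amyloid made outside the liver, macrophages and adipocytes included) lay between 0.249 and 0.968 CPM per kilobase, and neighbours in this order overlapped in all 4 groups. Il6 was last at 0.0355 to 0.0716.

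Il6 was at the edge of detection. Its rounded count was 0 to 4 in a mouse, with 6 of 24 mice at 0, and a count of 0 allowed up to 0.121 to 0.140 CPM in those mice. The totals over 6 mice were 7 counts in female WT, 6 in female Gdf15-KO, 11 in WT males and 10 in Gdf15-KO males. These correspond to 0.0499 (exact Poisson 95% interval 0.0201 to 0.103), 0.0404 (0.0148 to 0.0880), 0.0814 (0.0407 to 0.146) and 0.0714 CPM (0.0342 to 0.131), and the intervals, which cover counting error only, overlapped. Il6 therefore missed the filter on low counts that the other 9 genes passed, and it was compared by exact two-sided permutation over the 924 splits of 6 against 6 mice. The p was 0.571 for genotype in females, 0.654 for genotype in males, 0.145 for sex in WT and 0.394 for sex in Gdf15-KO mice, unadjusted over 4 tests. At this depth no difference in Il6 was detected, and the size of difference that could have been detected was not computed.

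**Figure D1:**
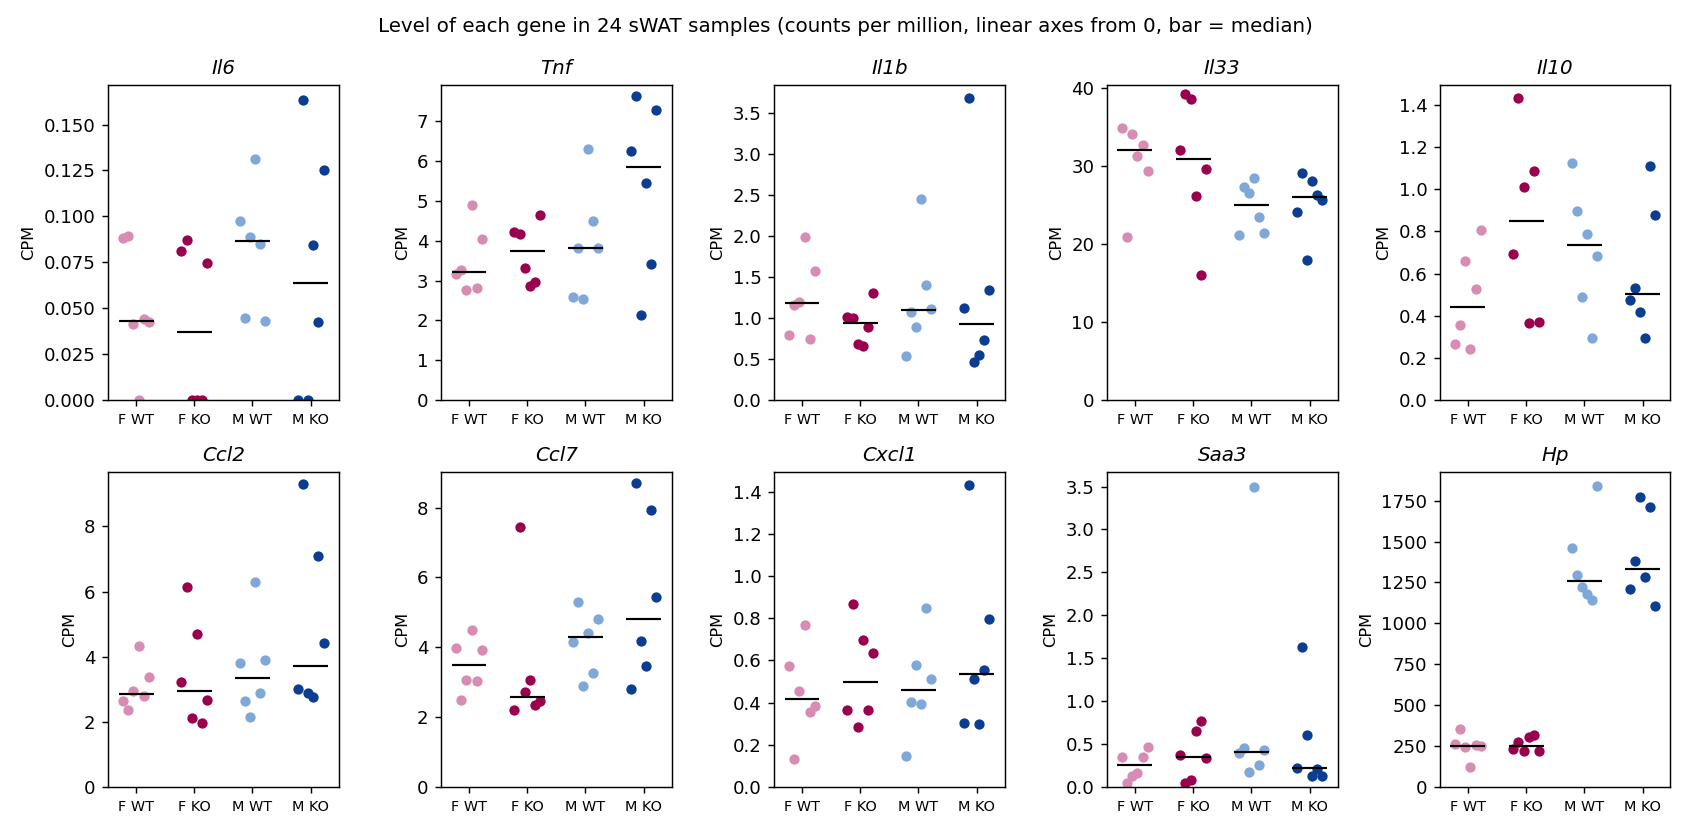
Level of each of the 10 genes in every mouse, in CPM on linear axes that start at 0, with 1 point for each mouse, a bar for the group median, F and M for females and males, and KO for Gdf15-KO. Hp in females (122 to 352 CPM) lies below Hp in males (1105 to 1841 CPM), while the groups of the other 9 genes overlap and single mice stand high in Il1b, Ccl7 and Saa3.

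Loss of GDF15 was not accompanied by a called change in any of the 9 genes that could be tested, in either sex. In females 0 of 9 passed an adjusted p of 0.05 in edgeR, where 0.194% of the 14982 tested genes did. Also 0 of 9 had an unadjusted p under 0.05, against 10.9% of all genes, and 0 had groups that did not overlap, against 1.03%. In males 0 of 9 passed (0.200% of all genes), 0 had an unadjusted p under 0.05 (5.47%), and 0 had groups that did not overlap (0.481%). DESeq2 and limma-voom also called 0 of 9 in both sexes, with 0 at an unadjusted p under 0.05. The median log2 fold change of the 9 genes was 0.08 in females and 0.08 in males, beside -0.01 and 0.00 over all tested genes.

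Tnf, a proinflammatory cytokine of macrophages and lymphocytes, had the lowest, median and highest values 2.77, 3.21 and 4.89 CPM in female WT and 2.86, 3.74 and 4.65 CPM in female Gdf15-KO mice. In males the values were 2.53, 3.81 and 6.30 CPM in WT and 2.14, 5.85 and 7.64 CPM in Gdf15-KO mice. The male Gdf15-KO group reached both lower and higher than the male WT group. The log2 fold change was 0.08 in females (95% interval -0.46 to 0.63, adjusted p = 0.933) and 0.45 in males (-0.09 to 0.99, unadjusted p = 0.0961, adjusted p = 0.942). The male interval allows up to a 1.98-fold higher level in Gdf15-KO mice and a 1.06-fold lower one.

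Il1b, whose product needs cleavage by the inflammasome, ran from 0.750 through a median of 1.18 to 1.98 CPM in female WT and from 0.654 through 0.943 to 1.30 CPM in female Gdf15-KO mice. In males it ran from 0.538 through 1.09 to 2.45 CPM in WT and from 0.465 through 0.924 to 3.68 CPM in Gdf15-KO mice. The highest value in males belonged to Gdf15-KO replicate 14, and the other 5 mice of that group lay within the WT range or below it. The log2 fold changes were -0.43 in females (-1.29 to 0.44) and 0.08 in males (-0.78 to 0.94). Without male Gdf15-KO replicate 14 the male value was -0.56.

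Il10, the anti-inflammatory cytokine of the set, came closest to a difference. In females the lowest, median and highest values were 0.243, 0.443 and 0.809 CPM in WT and 0.368, 0.851 and 1.44 CPM in Gdf15-KO mice. Of the 6 female Gdf15-KO mice, replicates 14, 15 and 17 lay above every WT female, and replicates 16 and 18 lay below the WT median. The log2 fold change was 0.78 (SE 0.40, 95% interval -0.04 to 1.60, unadjusted p = 0.0606, adjusted p = 0.485), on 67 counts in WT and 121 in Gdf15-KO mice in all. In males the medians were 0.736 CPM in WT and 0.503 CPM in Gdf15-KO mice, with a log2 fold change of -0.20 (-1.01 to 0.62). The difference between the sexes in the genotype effect was 0.98 (-0.18 to 2.13, unadjusted p = 0.0932, adjusted p = 0.998).

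Il33 had an SD of 12.7% to 16.8% of the mean in 3 groups and of 28.5% in female Gdf15-KO mice. Its medians were 31.99 CPM in female WT, 30.9 in female Gdf15-KO, 24.99 in male WT and 26.0 in male Gdf15-KO mice. The log2 fold changes were -0.01 in females (-0.35 to 0.33) and 0.03 in males (-0.32 to 0.37). With 3342 to 4477 counts a group, these intervals exclude a change beyond 1.28-fold in females and 1.29-fold in males.

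The chemokines were more variable, and their highest values in Gdf15-KO mice came from replicate 14 of each sex. Ccl2 had medians of 2.86 and 2.95 CPM in female WT and Gdf15-KO mice, with highest values of 4.33 and 6.13, and medians of 3.35 and 3.73 CPM in male WT and Gdf15-KO mice, with highest values of 6.30 and 9.32. Ccl7 had medians of 3.48 and 2.58 CPM in the females, with highest values of 4.49 and 7.43, and of 4.29 and 4.81 CPM in the males, with highest values of 5.29 and 8.70. Cxcl1 had medians between 0.419 and 0.533 CPM in all groups, on 63 to 92 counts a group.

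The groups overlapped for all 3 chemokines. In males the log2 fold changes were 0.45 for Ccl2 (-0.23 to 1.12), 0.39 for Ccl7 (-0.216 to 0.999) and 0.42 for Cxcl1 (-0.44 to 1.28), and in females they were 0.17 (-0.51 to 0.86), -0.06 (-0.67 to 0.56) and 0.26 (-0.62 to 1.13). Ccl2 in females turned to -0.07 and Ccl7 in females moved to -0.45 without female Gdf15-KO replicate 14. In males, leaving out Gdf15-KO replicate 14 lowered Ccl2 to 0.16, Ccl7 to 0.21 and Cxcl1 to 0.025. Without both male WT replicate 4 and male Gdf15-KO replicate 14, a fit added after the data were seen, Cxcl1 in males turned to -0.02.

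Of the acute phase genes, Saa3 was low and uneven. The lowest, median and highest values were 0.0446, 0.257 and 0.468 CPM in female WT and 0.0435, 0.351 and 0.765 CPM in female Gdf15-KO mice, and 0.178, 0.409 and 3.50 CPM in male WT and 0.126, 0.215 and 1.63 CPM in male Gdf15-KO mice. A single mouse gave 80 of the 118 counts in male WT (replicate 4) and 40 of the 69 in male Gdf15-KO mice (replicate 14). The log2 fold changes were 0.58 in females (-1.16 to 2.31) and -0.82 in males (-2.34 to 0.69), and the male value turned to 0.53 without male WT replicate 4.

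Hp had the deepest counts of the set, and its levels in Gdf15-KO and WT mice lay close together in both sexes. The lowest, median and highest values were 122, 252 and 352 CPM in female WT and 217, 251 and 315 CPM in female Gdf15-KO mice. In males they were 1140, 1258 and 1841 CPM in WT and 1105, 1330 and 1772 CPM in Gdf15-KO mice. Log2 fold changes were 0.07 in females (-0.31 to 0.45) and 0.06 in males (-0.32 to 0.43). Changes beyond 1.36-fold in females and 1.35-fold in males lie outside these intervals.

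**Figure D2:**
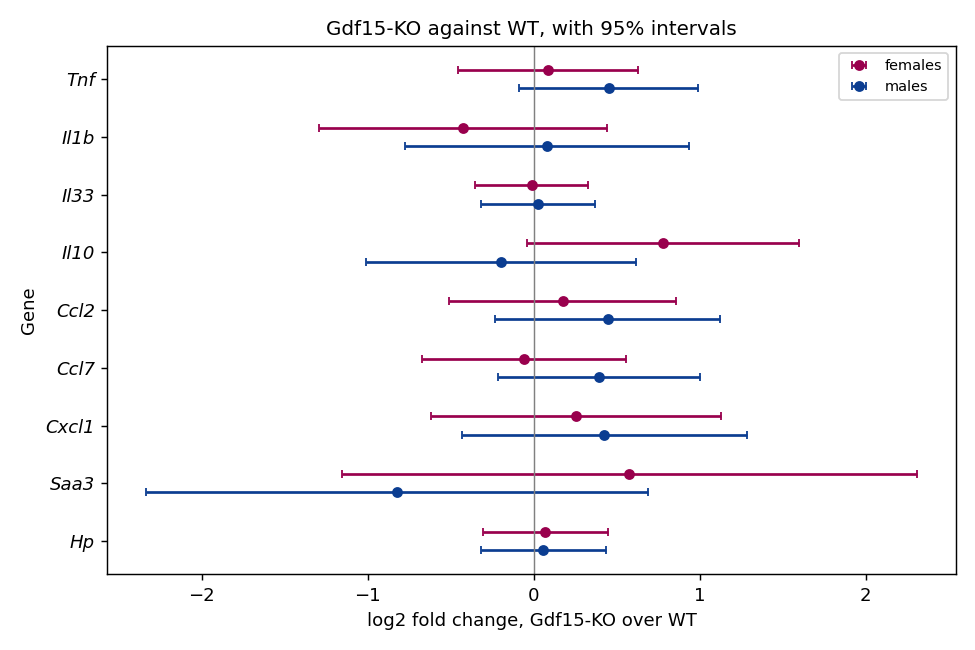
Log2 fold change of Gdf15-KO over WT mice for the 9 genes past the filter, with 95% intervals from the edgeR fit, for females and males. Every interval includes 0, with the narrowest for Il33 and Hp and the widest for Saa3 (-1.16 to 2.31 in females).

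The effect of genotype was also compared between females and males in a test of the difference itself. Of the 9 genes, 0 passed an adjusted p of 0.05, where 0% of all genes did, and 0 had an unadjusted p under 0.05, against 3.48% of all genes. DESeq2 and limma-voom gave 0 and 0 as well. The intervals of the difference were wide for the low genes, from -0.90 to 3.70 on the log2 scale for Saa3, and narrow for Il33 (-0.53 to 0.44) and Hp (-0.52 to 0.55).

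The wider pathway also held no called gene for genotype. Lists of 37 other cytokines and chemokines, 22 receptors and antagonists, 29 regulators and targets of NF-kB and STAT3 and 23 other acute phase proteins, counted after the filter, held 0 called genes in females, 0 in males and 0 for the difference, in edgeR, DESeq2 and limma-voom. At an unadjusted p under 0.05 they held 2, 0, 2 and 2 genes in females, 3, 2, 3 and 2 in males, and 1, 1, 0 and 0 for the difference, where all tested genes gave 10.9%, 5.47% and 3.48%. The median log2 fold changes of the 4 lists lay between 0.06 and 0.12 in females and between -0.10 and 0.12 in males.

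Sex, in contrast, separated 1 of the 9 genes. Hp was lower in females in both genotypes, with a log2 fold change of -2.46 in WT (SE 0.19, 5.49-fold, 95% interval 4.17 to 7.23, adjusted p = 6.85e-10) and of -2.44 in Gdf15-KO mice (5.44-fold, 4.14 to 7.16, adjusted p = 7.10e-10). The highest female of either genotype, at 352 CPM, lay far below the lowest male, at 1105 CPM. This was 1 of 9 called in WT mice, where 24.1% of all genes were called and 9.12% were lower in females, and 1 of 9 in Gdf15-KO mice, where 32.0% were called and 14.3% were lower in females. Groups did not overlap for 1 of 9 genes in each genotype, against 11.9% of all genes in WT and 14.4% in Gdf15-KO mice. The share called (11.1%) lies below that of all genes, and the shares lower in females and without overlap are near theirs. The count itself therefore sets the 9 genes no further apart than other genes.

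Adipocytes are a known source of haptoglobin, and the adipocyte markers also differed by sex. All 11 of the list were tested, and their summed level ran from 12600 to 22180 CPM in the 12 females and from 17960 to 28020 CPM in the 12 males, a difference of -0.37 (WT) and -0.45 (Gdf15-KO) on the log2 scale, female minus male. With the adipocyte marker score as a covariate, a fit added after the data were seen, the Hp log2 fold change was -2.16 in WT and -1.998 in Gdf15-KO mice. In the same fit Tnf and Il1b passed in Gdf15-KO mice, at -0.98 (adjusted p = 0.00461) and -1.12 (adjusted p = 0.0466). This fit was not repeated with single mice left out. Without the covariate, Il1b there ran from -0.69 to 0.14 when 1 mouse was left out. Male Gdf15-KO replicate 14 had 3.68 CPM of Il1b, and the others of its group at most 1.34. Also without the covariate, leaving out any single mouse kept Hp between -2.59 and -2.32 in WT and between -2.51 and -2.38 in Gdf15-KO mice.

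The other 8 genes overlapped between the sexes. Saa3 in WT mice had a log2 fold change of -1.78 (-3.41 to -0.14, unadjusted p = 0.0345, adjusted p = 0.109), which became -0.43 without male WT replicate 4 and male Gdf15-KO replicate 14. Ccl7 in Gdf15-KO mice had -0.69 (-1.30 to -0.08, unadjusted p = 0.0283, adjusted p = 0.0773), and it passed without female replicate 14 (-1.09), male replicate 13 (-0.83) or male replicate 16 (-0.80). Tnf in Gdf15-KO mice had -0.54 (-1.07 to 0.00, adjusted p = 0.121), and it passed without male Gdf15-KO replicate 15 (-0.71). Il33 was the member with higher estimates in females in both genotypes, at 0.31 (-0.04 to 0.65) in WT and 0.26 (-0.08 to 0.61) in Gdf15-KO mice, and it passed in Gdf15-KO mice without female replicate 17 (0.39).

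**Figure D3:**
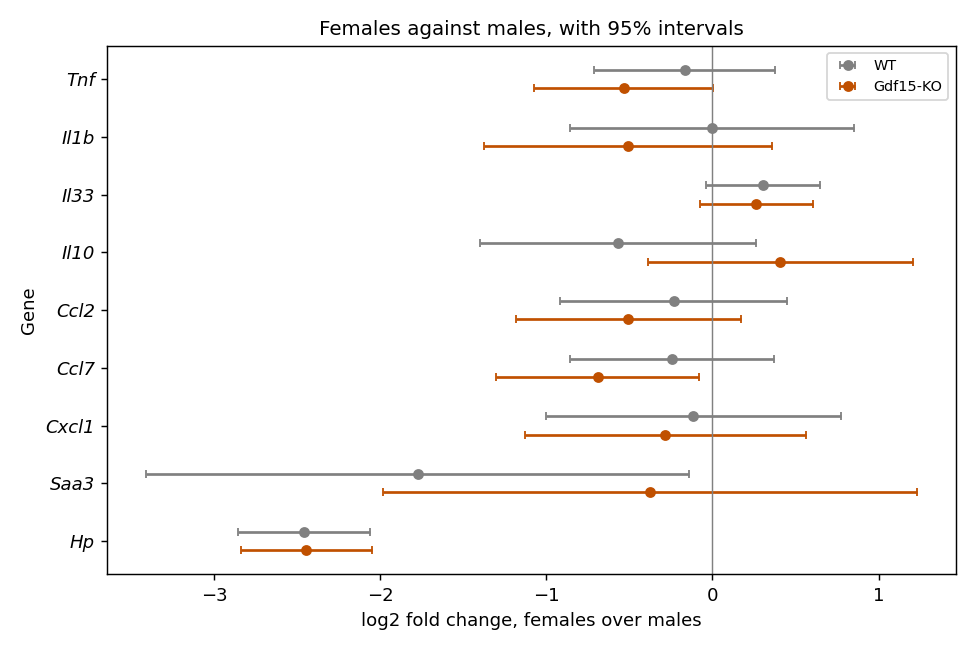
Log2 fold change of females over males for the 9 genes past the filter, with 95% intervals from the edgeR fit, in WT and in Gdf15-KO mice. Hp lies near -2.46 and -2.44 with intervals far from 0, and the other genes lie closer to 0, Saa3 in WT mice with the widest interval (-3.41 to -0.14).

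Other acute phase proteins differed by sex in both directions. In WT mice 11 of 23 were called, 3 higher and 8 lower in females, and in Gdf15-KO mice 10 of 23, 4 higher and 6 lower, with 8 genes called in the same direction in both. Over all tested genes 24.1% were called in WT and 32.0% in Gdf15-KO mice, 9.12% and 14.3% lower in females. The median log2 fold change of the list was -0.495 in WT and -0.48 in Gdf15-KO mice, beside -0.01 and -0.02 over all tested genes. Serpina3n, a serine protease inhibitor, was 120 ± 27.1 CPM (SD, n = 6) in female and 385 ± 80.0 in male WT mice, a log2 fold change of -1.69 in WT and -1.55 in Gdf15-KO mice. Complement C4b was lower in females at log2 fold changes of -1.07 in WT and -0.89 in Gdf15-KO mice, as were the metallothioneins Mt2 at -1.20 and -1.12 and Mt1 at -0.715 and -0.92. Lcn2, which binds bacterial siderophores and is also made by epithelia, was higher in females, at 34.6 ± 29.0 against 2.88 ± 3.85 CPM in WT mice, with log2 fold changes of 3.58 in WT and 4.12 in Gdf15-KO mice. Ptx3, a long pentraxin, was higher in females at 1.46 in WT and 2.34 in Gdf15-KO mice. The mammary and epithelial markers, all 11 of them tested, summed to 805 to 2063 CPM in females and 4.66 to 19.4 CPM in males, and their part in these values was not tested.

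Among the other cytokines and chemokines 8 of 37 were called in WT mice, 2 higher and 6 lower in females, and 9 of 37 in Gdf15-KO mice, 3 higher and 6 lower, 4 of them the same in both. These 21.6% and 24.3% of the list lie below the 24.1% and 32.0% of all genes. The 6 of 37 lower in females are a larger share than the 9.12% of all genes in WT mice and near the 14.3% in Gdf15-KO mice. With so few genes, no difference from other genes is read from these counts. The list medians were -0.32 and -0.31, beside -0.01 and -0.02 over all tested genes, and the list was not tested as a set. Cx3cl1, a membrane-bound chemokine, was 44.9 ± 24.5 CPM in female and 7.64 ± 1.04 CPM in male WT mice, with log2 fold changes of 2.55 in WT and 2.28 in Gdf15-KO mice. Csf3, the granulocyte growth factor, was 0.417 ± 0.229 and 0.0803 ± 0.0633 CPM in the same mice, with 2.28 and 3.32. In males, at 0.0493 ± 0.0485 CPM in Gdf15-KO mice, Csf3 lay near the level of Il6. It passed the filter through the females only, so the size of its fold changes is uncertain. Mammary and epithelial markers were also higher in females, and their part in the values of Cx3cl1 and Csf3 was not tested. The macrophage growth factor Csf1 was lower in females, at -0.38 in WT and -0.31 in Gdf15-KO mice. The monocyte chemokine Ccl8 was lower at -0.86 in WT mice and Tnfsf12 (TWEAK) at -0.34 in Gdf15-KO mice.

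Receptors and antagonists were called in 4 of 22 in WT mice, all 4 lower in females, and in 5 of 22 in Gdf15-KO mice, 1 higher and 4 lower, 3 of them the same in both. These 18.2% and 22.7% of the list lie below the 24.1% and 32.0% of all genes. The 4 of 22 lower in females are a larger share than the 9.12% of all genes in WT mice and near the 14.3% in Gdf15-KO mice. These counts are also too small to set the list apart from other genes. The list medians were -0.19 in each, beside -0.01 and -0.02 over all tested genes, and the list was not tested as a set. Il1r2, the decoy receptor that binds IL-1 without signalling, was 12.9 ± 3.87 CPM in female and 41.2 ± 10.1 CPM in male WT mice, with log2 fold changes of -1.68 in WT and -1.80 in Gdf15-KO mice. The main TNF receptor Tnfrsf1a was -0.25 and -0.36, and the IL-10 receptor chain Il10rb was -0.21 and -0.30. Il1r1, the signalling IL-1 receptor, was -0.29 in WT mice, and Ackr1, an atypical chemokine receptor of venules and red cells, was -0.49 in Gdf15-KO mice.

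Of the NF-kB and STAT3 regulators and targets 5 of 29 were called in WT mice, 1 higher and 4 lower in females, and 6 of 29 in Gdf15-KO mice, 1 higher and 5 lower, 4 of them the same in both. These 17.2% and 20.7% of the list lie below the 24.1% and 32.0% of all genes. The 4 of 29 lower in WT females are a larger share than the 9.12% of all genes, and the 5 of 29 in Gdf15-KO mice are near the 14.3%. Here too the counts are too small to set the list apart from other genes. The list medians were -0.27 and -0.12, beside -0.01 and -0.02 over all tested genes, and the list was not tested as a set. Tnfaip6, a hyaluronan-binding protein induced by TNF, was the higher one, at log2 fold changes of 0.77 in WT and 1.16 in Gdf15-KO mice. The part of mammary and epithelial markers, also higher in females, in these values was not tested. The inhibitor of NF-kB Nfkbib was lower, at -0.31 and -0.40, as was the transcription factor Cebpd at -0.56 and -0.73. Zc3h12a, an RNase that degrades Il6 mRNA, was -0.35 in WT mice, and Cebpb was -0.58 in Gdf15-KO mice.

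Within each group single mice stood high across several of the genes. In male Gdf15-KO mice 1 animal, replicate 14, had the highest value of its group for 8 of the 10 genes (Il6, Tnf, Il1b, Il33, Ccl2, Ccl7, Cxcl1 and Saa3). In male WT mice replicate 4 was highest for 6 (Il6, Tnf, Il1b, Il33, Ccl2 and Saa3). In female Gdf15-KO mice replicate 14 was highest for 6 (Il6, Il33, Il10, Ccl2, Ccl7 and Cxcl1), and in female WT mice replicate 4 for 5 (Tnf, Il1b, Ccl2, Ccl7 and Cxcl1). Hp was the highest in none of these 4 mice. Female WT replicate 4 had the lowest Hp, Il10 and Il6 of its group, and female Gdf15-KO replicate 14 the lowest Saa3. Il6 in female Gdf15-KO replicate 14 was 2 counts, the same count as in replicates 13 and 18. The same tally over all genes was not made.

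The marker sums of these 4 mice were not all alike. Male Gdf15-KO replicate 14 was first of its group in neutrophil (65.5 CPM) and mast cell markers (228 CPM) and second in T cell (461 CPM) and B cell markers (1042 CPM). Male WT replicate 4 was first of its group in T cell (409 CPM), B cell (1266 CPM) and mammary and epithelial markers (19.4 CPM). It was last in adipocyte (19580 CPM), mast cell (123 CPM), endothelial (964 CPM) and skeletal muscle markers (224 CPM). Female Gdf15-KO replicate 14 was first of its group in adipocyte markers (17970 CPM) and last in mast cell (222 CPM), fibroblast and progenitor (6815 CPM) and mammary and epithelial markers (805 CPM). Female WT replicate 4 was first in mammary and epithelial (2063 CPM), fibroblast and progenitor (14350 CPM) and mast cell markers (369 CPM). It was last in adipocyte (12600 CPM), macrophage (1514 CPM), neutrophil (46.7 CPM) and B cell markers (399.9 CPM). In females 47.8% to 85.4% of the neutrophil sum came from Ltf, which mammary epithelium also makes. The rank in neutrophil markers therefore need not hold for the rest of that list. Both WT mice were first of their group in mammary and epithelial markers and last in adipocyte markers. In the male the first place was a near tie at a low level, with 18.4 CPM in WT replicate 3 and 17.3 CPM in WT replicate 6. In the female the next highest was WT replicate 2 at 1229 CPM. The part of these differences in the gene levels was not tested.

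**Figure D4:**
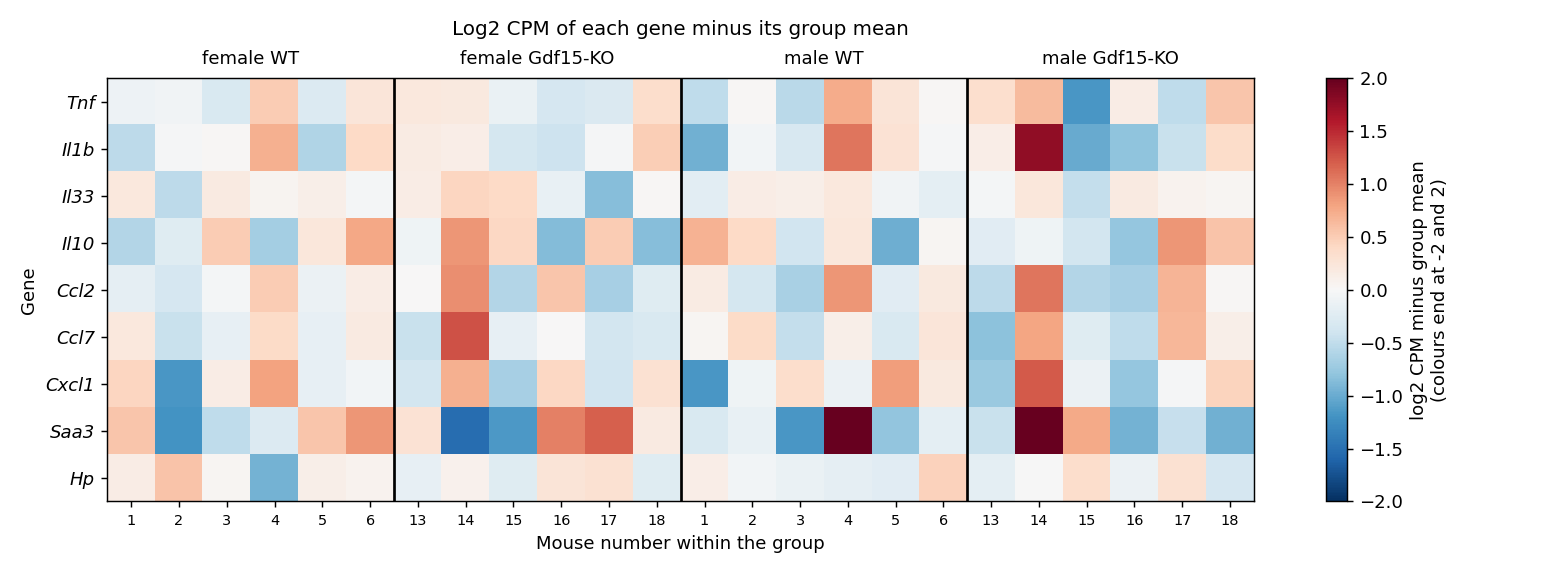
Log2 CPM of each of the 9 genes past the filter minus the mean of its group, for every mouse by its number, with red above and blue below the group mean and colours that end at -2 and 2. The columns of male WT replicate 4 and male Gdf15-KO replicate 14 are red for 7 of 9 genes each, that of female Gdf15-KO replicate 14 for 8 of 9, and those of female WT replicate 6 and male Gdf15-KO replicate 18 also for 7 of 9.

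Pairs of the 9 genes were correlated within each sex over 12 mice, WT and Gdf15-KO together, in 72 relations tested by permutation. After Benjamini-Hochberg adjustment 0 of 72 passed, for Pearson's r or Spearman's rho. The closest was between the neighbours Ccl2 and Ccl7 in males, with r = 0.820 and rho = 0.678 (permutation p = 0.00123 and 0.0175, adjusted p = 0.0886 and 0.420), and r fell to 0.523 without male Gdf15-KO replicates 14 and 17. In females the same pair had r = 0.750 and rho = 0.615 (permutation p = 0.00515 and 0.0375, adjusted p = 0.140 and 0.437), and r = 0.624 without the 2 mice farthest from the median. Tnf and Il1b, which share their inducing pathway, had r = 0.728 in males and 0.689 in females (permutation p = 0.00630 and 0.0136, adjusted p = 0.140 and 0.187), with rho = 0.811 and 0.552 (permutation p = 0.00214 and 0.0666, adjusted p = 0.154 and 0.437). Without the 2 farthest mice r was 0.551 and 0.465.

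Against the marker sums, 108 relations were computed after the data had been seen. Tnf moved with lymphocyte markers in males, with r = 0.919 and rho = 0.937 for T cell markers (permutation p = 4e-05 and 3e-05, adjusted p = 0.00432 and 0.00324) and r = 0.871 and rho = 0.846 for B cell markers (permutation p = 0.00017 and 0.00093, adjusted p = 0.00864 and 0.0335). Without male Gdf15-KO replicate 15 and male WT replicate 1, r was 0.856 and 0.780. With group means removed, r was 0.920 and 0.932. In females r was 0.683 for T cell and 0.335 for B cell markers (adjusted p = 0.138 and 0.675), and the difference between the sexes was not tested. T cell markers summed to 188 to 567 CPM over the 24 mice and B cell markers to 276 to 1457 CPM.

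Il1b passed with B cell markers in males by rank alone (rho = 0.902, permutation p = 0.00017, adjusted p = 0.00918), with r = 0.775 (permutation p = 0.0036, adjusted p = 0.0972) and r = 0.665 without the same 2 mice. The remaining relation past adjustment, by Pearson's r alone, was negative, between Il1b and neutrophil markers in females (r = -0.862, permutation p = 0.00024, adjusted p = 0.00864). Its rank correlation did not pass (rho = -0.776, adjusted p = 0.0946), and without female WT replicates 1 and 4 r was -0.788. In females 47.8% to 85.4% of the neutrophil sum came from Ltf, which encodes lactoferrin and is also made by mammary epithelium. Without Ltf r was 0.117.

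**Figure D5:**
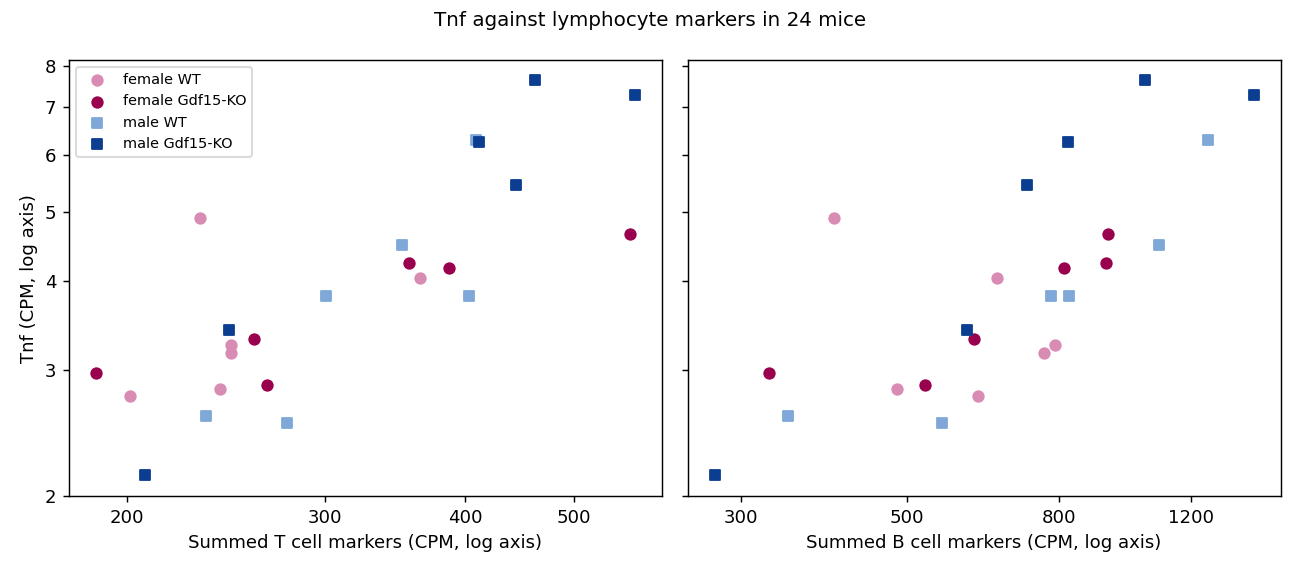
Tnf level against the summed level of T cell markers (left) and of B cell markers (right), both in CPM on log axes, with 1 point for each of the 24 mice, circles for females and squares for males. In males Tnf rises with both sums (r = 0.919 and 0.871 over 12 mice), while female WT replicate 4, at 4.89 CPM of Tnf, lies above the other females with as few T cell markers.

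Over all 24 mice, with group means removed, the genes most like each member were listed as a description from 14982 candidates. Tnf was most like Tlr12 (r = 0.963), a Toll-like receptor, Nfkb2 (0.945), an NF-kB subunit, and Vasp (0.944), an actin regulator. Il1b was most like Ifi30 (0.888), a lysosomal reductase, Itgax (0.865), the integrin CD11c of dendritic cells and some macrophages, and Plaur (0.854), the urokinase receptor. These r values are among the highest of many and carry no p.

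The other members had looser partners. Il33 was most like Dscam (0.832), Il4ra (0.831) and Ccdc92 (0.812), and Il10 was most like Ccno (0.718), Micall1 (0.686) and Slc25a47 (0.685). Ccl2 was most like Sdf2l1 (0.804), Eif4a1 (0.794) and Ccl7 (0.788), and Ccl7 was most like Ccl2 (0.788), Tpcn2 (0.780) and Eif4a1 (0.740). Cxcl1 was most like Thoc1 (0.818), 1700010I14Rik (0.763) and Prpf38a (0.757), and Saa3 most like F10 (0.731), Erp44 (0.713) and Prg4 (0.683). Genes like Hp included Mccc2 (0.814), a subunit of the leucine-degrading carboxylase, and Kank2 (0.812).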

How the data were processed

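RNA-Seq was done on sWAT of 24 mice. BGI trimmed the reads and aligned them to GRCm39 with Bowtie2 2.2.5, and the authors deposited RSEM 1.2.8 expected counts for 19175 genes, from 22521358 to 24500575 a mouse (5.07% of values had decimals). Expected counts were rounded here, filtered with filterByExpr (minimum count 10, minimum total 15), scaled with TMM factors and tested in edgeR 4.0.16 under R 4.3.3 (quasi-likelihood test, 1 mean for each of 4 groups, Benjamini-Hochberg adjusted p under 0.05). Log2 CPM used a prior count of 2. DESeq2 1.42.0, limma 3.58.1 (voom), other scalings, filters, thresholds, marker scores and leaving out each mouse were alternatives. Correlations used 100000 resamples. All samples were kept, and the procedure was tested on simulated data. Positions came from GENCODE M39 (GRCm39) and promoters from RefSeq (GRCm38.p6). The text names all members, in each wider list the called genes of the genotype comparisons and the 4 called genes with the smallest p in each sex comparison, and 3 like genes for each member, of which 1 is not reported here. The members and lists were chosen with earlier results of these data known.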

Additional observations from a re-analysis of the deposited data

Results flagged for a closer look

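Of 40 groups of 6 mice (10 genes in 4 groups), 4 had a mouse whose gap to its nearest neighbour exceeded Dixon's 95% critical share of the group's range, where chance gives about 1 in 20 groups. Il33 in female WT replicate 2 was 20.8 CPM, the lowest of its group. Ccl7 in female Gdf15-KO replicate 14 was 7.43 CPM, the highest of its group. Saa3 in male WT replicate 4 was 3.50 CPM, the highest of its group. Hp in female WT replicate 4 was 122 CPM, the lowest of its group, in a mouse whose adipocyte markers (12600 CPM) were also the lowest of the 12 females.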

How the results depend on the processing

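The counts of 0 for genotype, for its difference between the sexes and for the relations between members stayed at 0 under each alternative run, and Hp was called in both sex comparisons under each. Low counts limit Saa3, Cxcl1 and Il10, whose intervals for genotype include changes of more than 2-fold, and Il6, which had no fold change. The intervals of Il1b in females (up to 2.45-fold lower) and of Ccl2 in males (up to 2.18-fold higher) also reach beyond 2-fold. Differences in Il6 kept their direction on rounded counts. Over all genes, DESeq2 called 79 against 29 in females and 51 against 30 in males. The causes of the changes below were not tested. In Gdf15-KO mice the members that differed by sex numbered 2 at an adjusted p under 0.1, 2 with the replicate block and 3 with the adipocyte score. Under the replicate block Ccl7 passed there (-0.71, adjusted p = 0.0202). Mice of the 2 sexes share numbers, and the labels do not say what a number stands for. Same-numbered mice had correlations from -0.56 to 0.40, over 0.1 in 9 of 12 pairs and highest with their own number in 4 of 12. These values do not settle whether the numbers mark pairs, and the main fit did not take them as pairs. Among genes called between the sexes in WT mice, the other cytokines numbered 3 at an adjusted p under 0.01 and 5 without male WT replicate 4 and male Gdf15-KO replicate 14 together, the receptors 1 at an adjusted p under 0.01, and the acute phase proteins 7 with 10 counts required in every sample. The NF-kB and STAT3 list numbered 8 in DESeq2, 2 and 10 at adjusted p under 0.01 and 0.1, 8 with the replicate block and 9 with the adipocyte score. In Gdf15-KO mice an adjusted p under 0.01 left 4 other cytokines and 3 receptors. Leaving out 1 mouse gave 5 to 10 other cytokines, 2 to 5 receptors and 3 to 6 NF-kB and STAT3 genes in WT, and 1 to 2 members and 3 to 6 receptors in Gdf15-KO mice.

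Estimates that changed sign had not passed the test in the fit as reported, though Il1b between the sexes in Gdf15-KO mice passed with the adipocyte score (-1.12, adjusted p = 0.0466). For genotype, Tnf in females was -0.039 with the B cell score. Il1b in males was -0.15 in limma-voom, -0.085 with the skeletal muscle score and -0.24 without the 2 named males, and Cxcl1 in males was -0.015 without them. The difference in Cxcl1 between the sexes was then 0.28. For sex in WT mice, Il1b was 0.00 with upper quartile factors, 0.007 with 10 counts in every sample, 0.057 in limma-voom, 0.047 with the replicate block and 0.31 without the 2 males, when Tnf was 0.022 and Ccl2 0.005. In Gdf15-KO mice, without the 2 males, Il1b was 0.14, Cxcl1 0.11 and Saa3 0.56.

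Leaving out 1 mouse gave, for genotype in females, -0.10 to 0.12 for Il33, -0.066 to 0.30 for Ccl2, -0.45 to 0.039 for Ccl7 and -0.069 to 0.21 for Hp. In males it gave -0.56 to 0.40 for Il1b, -0.017 to 0.12 for Il33, -1.76 to 0.53 for Saa3 and -0.011 to 0.17 for Hp. For the difference it gave -0.82 to 0.14 for Il1b, -0.13 to 0.09 for Il33, -0.51 to 0.012 for Ccl2, -0.41 to 0.23 for Cxcl1 and -0.13 to 0.14 for Hp. For sex it gave -0.29 to 0.015 for Tnf, -0.19 to 0.30 for Il1b and -0.35 to 0.12 for Cxcl1 in WT, and -0.69 to 0.14 for Il1b, -0.47 to 0.12 for Cxcl1 and -0.71 to 0.56 for Saa3 in Gdf15-KO mice.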
